A study of Homo sapiens with 24 samples.

Results

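EGFR, the cell-surface receptor for epidermal growth factor (EGF), and IGF1R, the receptor for insulin-like growth factor 1 (IGF1), were followed across 24 arrays of OVCAR-3, a human cell line from a serous ovarian carcinoma resistant to platinum drugs. Both were taken by their symbols in the platform annotation and made up 2 of 14884 named genes. Each had 1 probeset, a group of array probes summarized to 1 value, among the 53617 of the array. These were 17046135 for EGFR (NM_005228) and 16805495 for IGF1R (NM_000875), and both were among the 7442 genes bright enough to be tested. The pair was chosen by its higher signal in polysome RNA of cells given INK128, alone or with carboplatin. Every difference that contains polysome arrays of INK128 or combination cells is therefore given as a description without a test, and the tests rest on total RNA and on the remaining contrasts. The DMSO polysome arrays were the baseline of that choice and also enter 3 of the contrasts tested: carboplatin against DMSO in polysome RNA, its translation efficiency, and polysome minus total RNA in DMSO cells.

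Cells received 1 µM carboplatin plus 0.25 µM INK128 (the combination), INK128 alone, carboplatin alone, or DMSO as the solvent control. INK128 occupies the ATP site of mTOR and inhibits both of its complexes, mTORC1 and mTORC2, and carboplatin is a platinum drug that crosslinks DNA. Combination cells had INK128 for 19 h before carboplatin was added for a further 5 h, cells with carboplatin alone had it for 5 h, and harvest was at 24 h. From the lysates, total RNA and the dense gradient fractions with mRNA on at least 4 ribosomes (polysome RNA) were hybridized. By the labels, polysome RNA was on 3 combination, 3 INK128, 5 carboplatin and 3 DMSO arrays, and total RNA on 2, 2, 4 and 2 arrays in that order. All groups came from this 1 unmodified line, with several plates pooled for a condition. The methods name 2 independent replicate sets, while a group had up to 5 arrays by the labels. Groups with more than 2 arrays therefore hold more arrays than sets named, and the labels do not say which arrays share a set. The tests count each array as independent, so part of the spread between arrays of a group, on which the p-values rest, may be technical.

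For 4 arrays the label was in conflict with the condition under which the datasets of the study list the same values. Those with the labels carboplatin polysome 1 and carboplatin total 1 carry values listed as combination total RNA. The one labelled combination total 1 carries values listed as carboplatin polysome RNA, and combination total 2 carries values listed as carboplatin total RNA. These 4 arrays were left out, which kept 13 polysome arrays (3 combination, 3 INK128, 4 carboplatin, 3 DMSO) and 7 total RNA arrays (2 INK128, 3 carboplatin, 2 DMSO). Where combination total RNA was needed, the 4 arrays were placed by the values they carry, and they are called reassigned arrays. Among the carboplatin arrays kept, 3 have a number code in the label (carbo_poly_022_rep2, carbo_poly_102_rep3 and carbo_total_101_rep1), and what the codes stand for is not given in the sources used here.

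Array medians lay between 4.97 and 5.13 log2 units, and precision is limited by how few arrays each group had. Of 12 markers of serous ovarian carcinoma and epithelium named on the array, 11 passed the brightness filter, led by PAX8, a transcription factor of Müllerian epithelium, with a mean log2 signal of 12.2. The exception was the estrogen receptor gene ESR1 with 4.94. Of the named markers of other cell types, 0 of 3 for fibroblasts, 1 of 3 for leukocytes (CD68, 9.73) and 1 of 4 for endothelium (CLDN5, 6.75) passed. CD68, which encodes a lysosomal glycoprotein abundant in macrophages, was higher with INK128 in polysome RNA by 0.87 log2 units (SE 0.23, limma adjusted p = 0.0346), with the combination by 1.12 (adjusted p = 0.00931) and in total RNA, averaged over carboplatin, by 0.85 (adjusted p = 0.00158). The leukocyte genes CD14 and LYZ stayed below the filter with means of 4.40 and 4.80. The part of CD68 in the results on the receptors was not tested. The signals are relative to the rest of each array, so that the amount of RNA per cell was not measured.

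EGFR and IGF1R are receptor tyrosine kinases. Ligand binding brings the intracellular kinase domains into an active arrangement, adaptor proteins such as the IRS and GRB families dock on the phosphorylated tails, and the signal passes to the RAS and MAP kinase cascade and to PI3K, Akt and mTOR. The pathway restrains itself. Active mTORC1 and its kinase S6K lower the IRS adaptors, and Akt keeps FOXO transcription factors out of the nucleus, where they can switch on genes of several receptor kinases. In several cancer cell types, inhibitors of mTOR or Akt are known to raise receptor kinase signalling in this way.

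The sequences before the transcription start are shown because both genes were read as transcripts whose level differed with INK128, and these are the regions from which the transcripts start. The windows are the 250 bases before the start in the RefSeq annotation of GRCh38.p14, on the plus strand, at chr7:55018767-55019016 for EGFR and chr15:98648289-98648538 for IGF1R. Capitals mark the GC box, the letters GGGCGG on either strand (CCGCCC on the strand shown), which is bound by SP1 and related factors.
EGFR: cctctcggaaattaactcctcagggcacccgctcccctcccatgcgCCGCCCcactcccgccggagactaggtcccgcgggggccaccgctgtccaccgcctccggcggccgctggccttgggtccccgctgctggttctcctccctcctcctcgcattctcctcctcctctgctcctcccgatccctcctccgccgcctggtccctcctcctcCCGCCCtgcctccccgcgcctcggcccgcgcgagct
IGF1R: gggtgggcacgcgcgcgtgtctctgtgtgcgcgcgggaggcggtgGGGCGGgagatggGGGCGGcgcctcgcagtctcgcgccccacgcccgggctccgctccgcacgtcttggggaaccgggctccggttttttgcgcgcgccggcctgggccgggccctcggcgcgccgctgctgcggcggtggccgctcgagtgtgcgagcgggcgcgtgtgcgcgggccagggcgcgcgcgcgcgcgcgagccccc

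Each window held 2 GC boxes, in EGFR on the minus strand and in IGF1R on the plus strand, and 42.6% of all 35116 windows of this length held at least 1. G and C made up 73.6% of the EGFR window and 81.2% of the IGF1R window, against a median of 58.0% over all windows. Neither held a TATA box (TATAAA on either strand, in 10.7% of windows) or the FOXO core element (TGTTTAC on either strand, in 2.98% of windows). No match says only that these letters are not in these 250 bases. The annotation lists a second EGFR window at a downstream start, chr7:55109589-55109838, which is not shown. It differed from the first, with 2 TATA boxes, 0 GC boxes and 0 FOXO core elements, and G and C made up 38.8% of it.

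In polysome RNA, both receptors were highest in the cells that had received INK128. The EGFR log2 signal was 10.21, 10.41 and 10.12 on the combination arrays, 10.25, 10.21 and 10.28 on the INK128 arrays, 9.68, 9.82, 8.82 and 9.12 on the carboplatin arrays (replicates 2 and 3, then the coded replicates 2 and 3), and 8.63, 9.35 and 9.06 on the DMSO arrays. All 6 arrays with INK128 lay above all 7 without it. Means were 10.25 ± 0.149 with the combination, 10.25 ± 0.033 with INK128 alone, 9.36 ± 0.473 with carboplatin and 9.01 ± 0.362 with DMSO (SD, n = 3, 3, 4 and 3). In this order of levels the first pair of groups overlapped, and so did the last pair. EGFR was higher by 1.24 log2 units in INK128 than in DMSO cells (SE 0.236, 2.36-fold with a 95% interval of 1.66 to 3.34), and by 1.24 (SE 0.236) in combination than in DMSO cells. Over all tested genes, 8.18% passed an adjusted p of 0.05 (limma, Benjamini-Hochberg) for INK128 against DMSO in polysome RNA, and 13.1% for the combination against DMSO. As these contrasts chose the pair, no test is given for them.

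IGF1R followed the same split with smaller distances. Its log2 signal was 7.23, 7.35 and 7.03 on the combination arrays, 7.46, 7.35 and 7.59 on the INK128 arrays, 6.82, 6.96, 6.87 and 6.84 on the carboplatin arrays in the order given above, and 6.82, 6.77 and 6.81 on the DMSO arrays. The arrays with INK128 again lay above all others, although the lowest of them, combination 3 at 7.03, was close to the highest of the others, carboplatin 3 at 6.96. Means were 7.20 ± 0.163 with the combination, 7.47 ± 0.120 with INK128, 6.87 ± 0.064 with carboplatin and 6.80 ± 0.027 with DMSO. INK128 and combination arrays overlapped, as did carboplatin and DMSO arrays. The difference was 0.67 (SE 0.117, 1.59-fold, 95% interval 1.33 to 1.89) between INK128 and DMSO cells and 0.41 (SE 0.117, 1.32-fold, 1.11 to 1.58) between combination and DMSO cells, again without a test.

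**Figure D1:**
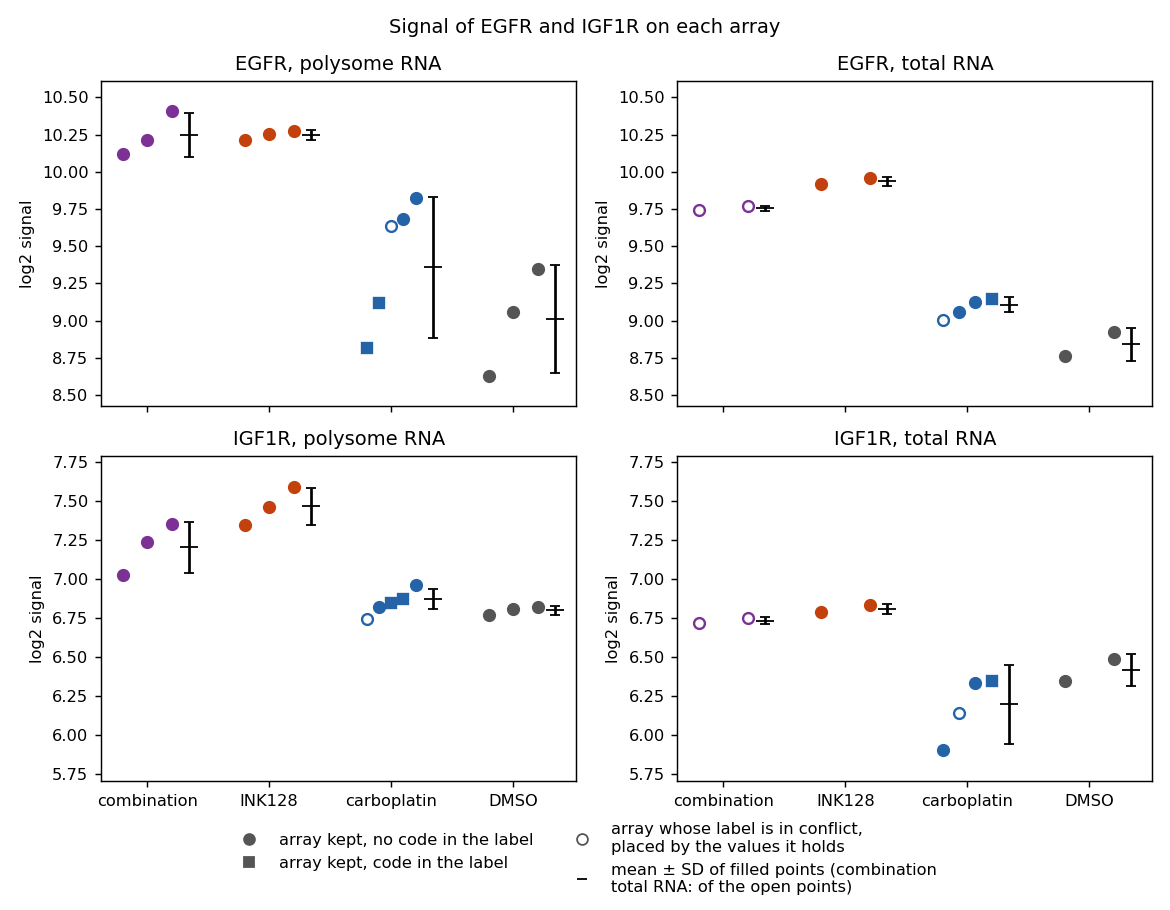
Log2 signal of EGFR (top) and IGF1R (bottom) on each array, in polysome RNA (left) and total RNA (right), with the combination, INK128, carboplatin and DMSO from left to right. Filled points are arrays kept (squares have a code in the label), open points are the 4 reassigned arrays at the condition of their values, and bars give mean ± SD; in every panel the arrays with INK128 lie above those without it.

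Total RNA was not used to choose the pair, and it could be tested. By the methods it came from the same lysates as the polysome RNA, so these tests are no independent support for that choice. EGFR had log2 signals of 9.92 and 9.96 on the INK128 arrays, 9.12, 9.06 and 9.15 on the carboplatin arrays and 8.92 and 8.76 on the DMSO arrays. The reassigned combination arrays had 9.77 and 9.74, and the reassigned carboplatin array had 9.01. These 4 groups did not overlap, and their order was INK128, combination, carboplatin and DMSO. EGFR was 1.09 higher in INK128 than in DMSO cells (SE 0.172, 2.13-fold, 95% interval 1.64 to 2.78), and limma's adjusted p over all tested genes was 0.0495, just under the threshold of 0.05. This comparison called 0.161% of genes, or 12. The call did not survive leaving out any single total RNA array, 7 of 7 refits giving adjusted p from 0.0503 (without INK128 total 2) to 0.774 (without DMSO total 2), and with all 24 arrays by their labels it was 0.322. With the replicate number as a block it was 0.0637. With the reassigned arrays in the fit, adjusted p was 0.00806 for the same difference.

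IGF1R had log2 signals of 6.79 and 6.83 in total RNA of INK128 cells, 5.91, 6.34 and 6.35 in carboplatin cells and 6.49 and 6.34 in DMSO cells. The reassigned combination arrays gave 6.75 and 6.72 and the reassigned carboplatin array 6.14. Arrays with INK128 lay above all others, INK128 above combination, and carboplatin and DMSO arrays overlapped. The array carboplatin total 2 was the lowest of all. IGF1R was 0.39 higher in INK128 than in DMSO cells (SE 0.204, 95% interval -0.06 to 0.84), and this did not pass the test (adjusted p = 0.395).

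The 4 total RNA arrays with INK128 (INK128 and reassigned combination) were then set against the 6 without it. EGFR averaged 9.85 ± 0.105 with INK128 and 9.002 ± 0.143 without it (SD, n = 4 and 6), and IGF1R averaged 6.77 ± 0.049 with INK128 and 6.26 ± 0.207 without it. All 6 IGF1R values without INK128 (5.91 to 6.49) lay below the filter of 6.54 on the mean over arrays, which IGF1R passed through its higher values elsewhere, so its fold change in total RNA is measured against dim signals. Neither gene overlapped between the sets. The share of all tested genes that were separated in this way was not counted. The exact two-sided permutation test over the 210 arrangements gave p = 0.0048 for either gene, which is the smallest it can give. As an effect of INK128 averaged over cells with and without carboplatin, the limma fit gave 0.88 for EGFR (SE 0.095, 1.84-fold, 95% interval 1.60 to 2.13, adjusted p = 0.000388) and 0.47 for IGF1R (SE 0.115, 1.39-fold, 1.16 to 1.65, adjusted p = 0.0208). In this fit 14.4% of all tested genes passed, and 30.6% had an unadjusted p under 0.05. EGFR kept its call in each of 10 refits without 1 array, with adjusted p of at most 0.00612. IGF1R lost it in 4 of them, at 0.0622 without the array labelled carboplatin polysome 1, 0.0733 without carboplatin total 1, 0.0591 without DMSO total 1 and 0.109 without DMSO total 2. With the replicate number as a block, IGF1R also lost it (0.44, adjusted p = 0.0612) and EGFR kept it (0.86, adjusted p = 0.00501). If all 24 arrays were instead taken by their labels, the averaged effects were 0.57 for EGFR (adjusted p = 0.704) and 0.25 for IGF1R (adjusted p = 0.751), so that both calls rest on where the 4 arrays are placed. The rise of EGFR exceeded that of IGF1R by 0.33 log2 units, which did not reach the threshold (exact two-sided permutation test, p = 0.0714, a test chosen after the values were seen). Adjusted over these 3 exact tests only, and not over all tested genes, p was 0.00714 for either gene and 0.0714 for the difference.

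Single comparisons in total RNA that need the reassigned arrays gave the same direction. Combination cells had 0.91 more EGFR than DMSO cells (SE 0.144, adjusted p = 0.0191), in a comparison that called 0.417% of genes. That call was lost without the array labelled carboplatin polysome 1 (0.0978), carboplatin total 1 (0.239), DMSO total 1 (0.165) or DMSO total 2 (0.334). IGF1R was 0.32 higher in combination than in DMSO cells (SE 0.174, adjusted p = 0.424) and did not pass. Set against carboplatin alone, the combination had higher EGFR by 0.67 (SE 0.124, adjusted p = 0.0128) and higher IGF1R by 0.55 (SE 0.151, adjusted p = 0.0453), with 8.37% of all genes called. EGFR lost this call without the array labelled carboplatin polysome 1 (0.0695) or carboplatin total 1 (0.164). IGF1R lost it in 7 of 10 such refits, those without carboplatin total 3 (0.0546), carboplatin total 2 (0.0786), DMSO total 1 or 2 (0.0796 each), combination total 2 (0.109), carboplatin polysome 1 (0.173) or carboplatin total 1 (0.292) by their labels. With the replicate number as a block, adjusted p was 0.105 for EGFR against DMSO, 0.142 for EGFR against carboplatin and 0.234 for IGF1R against carboplatin, so that none of these calls held. By the labels of all 24 arrays, combination cells exceeded DMSO cells by only 0.48 in EGFR (limma adjusted p = 0.640) and 0.02 in IGF1R (0.986). They exceeded carboplatin cells by 0.052 in EGFR (0.970) and 0.11 in IGF1R (0.928). The difference between combination and carboplatin cells in polysome RNA, for which no test is given, was 0.89 for EGFR (SE 0.220) and 0.33 for IGF1R (SE 0.110).

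**Figure D2:**
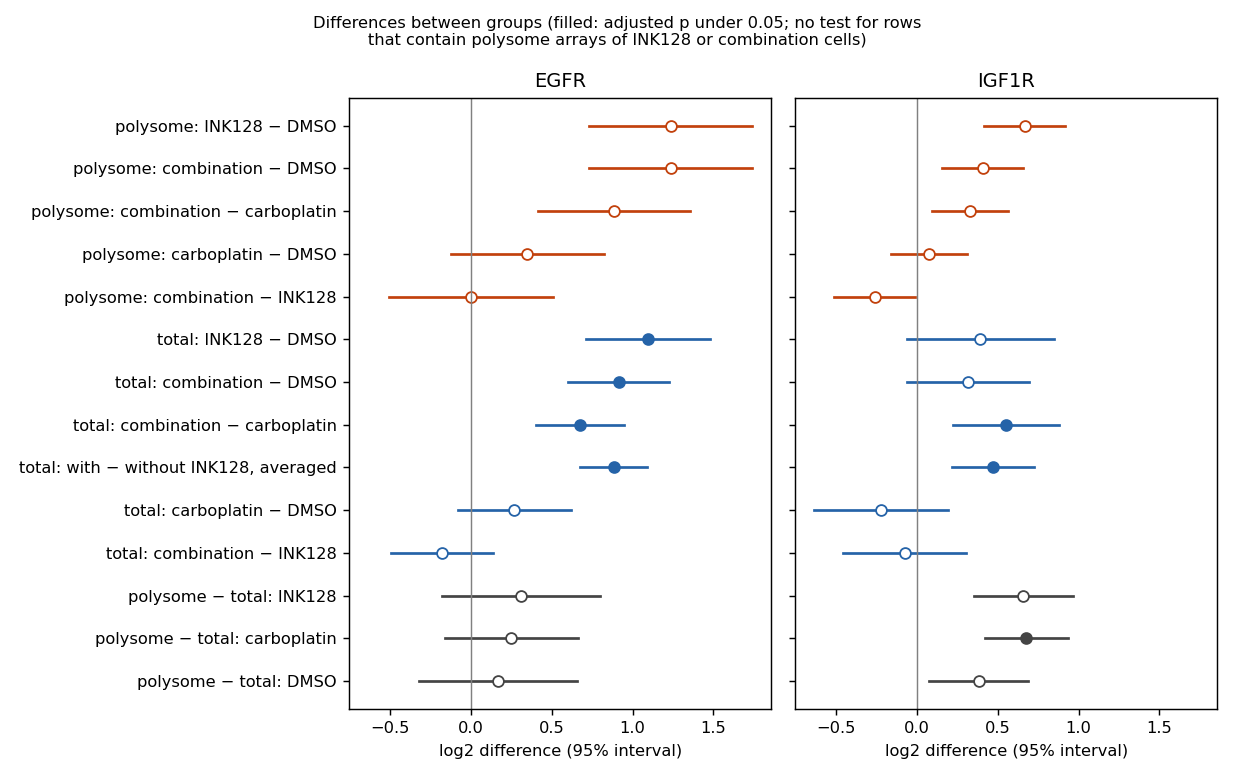
Log2 differences of EGFR (left) and IGF1R (right) with 95% intervals from limma, in polysome RNA, total RNA and polysome minus total RNA; each row gives the group named first minus the one named second. Filled points passed an adjusted p of 0.05, which EGFR did in 4 rows and IGF1R in 3, and rows that contain polysome arrays of INK128 or combination cells have no test.

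Carboplatin, given alone for 5 h, changed neither receptor beyond the threshold. In polysome RNA, EGFR was 0.35 higher in carboplatin than in DMSO cells (SE 0.220, 95% interval -0.12 to 0.82, adjusted p = 1.00) and IGF1R 0.08 higher (SE 0.110, interval -0.16 to 0.31, adjusted p = 1.00). Here limma called 0 of 7442 genes (0%), while 175 had an unadjusted p under 0.05. The 4 EGFR values fell by label code, with 9.68 and 9.82 on the carboplatin arrays without a code and 8.82 and 9.12 on those with one. Without the coded arrays the difference from DMSO was 0.74 (adjusted p = 0.0537), and that of the combination over carboplatin was 0.49. IGF1R showed no such split, with 6.82 and 6.96 without a code and 6.87 and 6.84 with one. In total RNA, carboplatin cells exceeded DMSO cells by 0.27 in EGFR (SE 0.157, interval -0.08 to 0.62) and were lower by 0.22 in IGF1R (log2 difference -0.22, SE 0.186, interval -0.64 to 0.19), each with adjusted p = 0.993. Again limma called 0% of genes, with 198 at an unadjusted p under 0.05.

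Adding carboplatin to INK128 left EGFR in polysome RNA at the same mean, with a difference between combination and INK128 cells of 8e-05 and a 95% interval of -0.50 to 0.50. IGF1R was lower in combination than in INK128 cells by 0.26 (log2 difference -0.26, SE 0.117, interval -0.51 to -0.01). This contrast called 0% of genes, with 207 at an unadjusted p under 0.05. In total RNA, with reassigned arrays, the combination stood at -0.18 relative to INK128 for EGFR (SE 0.144, interval -0.49 to 0.13, adjusted p = 0.682) and at -0.08 for IGF1R (SE 0.174, interval -0.46 to 0.31, adjusted p = 0.892), and 0% of genes were called, with 539 at an unadjusted p under 0.05. With all 24 arrays by their labels these total RNA differences were -0.62 for EGFR (adjusted p = 0.261) and -0.37 for IGF1R (adjusted p = 0.508). The interaction in polysome RNA, which asks whether the INK128 effect differed with carboplatin, was -0.35 for EGFR (SE 0.322) and -0.34 for IGF1R (SE 0.161). It called 0% of genes by limma, and 1.37% had an unadjusted p under 0.05. The 95% interval was -1.04 to 0.34 for EGFR and -0.68 to 0.01 for IGF1R. As both this interaction and the polysome difference between combination and INK128 cells rest on arrays by which the pair was chosen, neither is given a test. Their intervals describe precision only and are not read against 0.

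A larger polysome than total RNA signal passed the test for IGF1R in carboplatin cells, not in DMSO cells, and for EGFR in neither. Whether the genes differ in this was not tested. As signals are relative to the rest of each array, a positive difference means a larger share of the polysome signal than of the total RNA signal. By the methods, the 2 fractions were also normalized apart when transcription and translation were examined. Whether the deposited values were normalized together or by fraction was not settled here. The fits took the arrays of the 2 fractions as unpaired, although both fractions came from the same lysates. IGF1R stood 0.68 higher in polysome than in total RNA of carboplatin cells (SE 0.122, 1.60-fold, 95% interval 1.34 to 1.91, adjusted p = 0.00254), in a comparison that called 26.2% of genes, and kept this call in all 20 refits without 1 array, though not with all 24 arrays by their labels (0.52, adjusted p = 0.0692). Of the genes called in carboplatin cells, 1495 were higher in polysome RNA and 456 lower, and the median over all tested genes was 0.13. In DMSO cells IGF1R stood 0.38 higher (SE 0.146, adjusted p = 0.113), where 4.38% of genes were called. In INK128 cells the difference was 0.66 (SE 0.146), with no test since its polysome arrays helped to choose the pair. EGFR had 0.25 in carboplatin cells (SE 0.196, adjusted p = 0.362), 0.17 in DMSO cells (SE 0.234, adjusted p = 0.693) and 0.31 in INK128 cells (SE 0.234, no test). Without the coded arrays the carboplatin value of EGFR was 0.66 (adjusted p = 0.0427).

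The datasets of the study number polysome and total RNA columns alike, which gave 8 pairs of arrays. In these, with the reassigned arrays at the condition of their values, polysome minus total RNA for IGF1R was 0.49 and 0.31 with the combination, 0.91, 0.63, 0.60 and 0.50 with carboplatin, and 0.33 and 0.46 with DMSO. It was positive in 8 of 8 pairs. For EGFR it was 0.44 and 0.38 with the combination, 0.56, 0.77, 0.63 and -0.03 with carboplatin, and -0.29 and 0.29 with DMSO, and so was positive in 6 of 8 pairs. The negative carboplatin pair holds carbo_poly_102_rep3 and carbo_total_101_rep1.

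**Figure D3:**
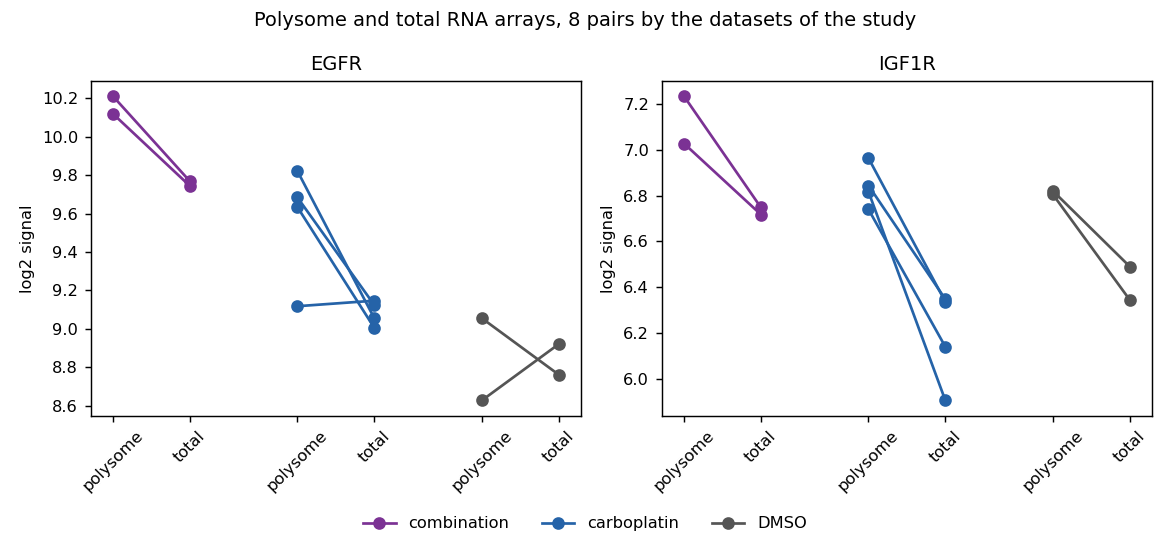
Log2 signal in polysome RNA and in total RNA for the 8 array pairs of the datasets of the study, 1 line per pair, for EGFR (left) and IGF1R (right) with the combination, carboplatin and DMSO from left to right. IGF1R lines all run down towards total RNA, and EGFR lines do so in 6 of 8 pairs.

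Translation efficiency is the polysome minus total difference in treated cells less that in DMSO cells. It was tested for carboplatin alone, and the intervals given for INK128 and the combination describe precision only. With INK128 it was 0.14 for EGFR (SE 0.331, 95% interval -0.55 to 0.84) and 0.28 for IGF1R (SE 0.207, interval -0.16 to 0.71). With the combination and reassigned arrays it was 0.32 for EGFR (SE 0.314, interval -0.33 to 0.97) and 0.09 for IGF1R (SE 0.192, interval -0.31 to 0.49), and with all 24 arrays by their labels it was 0.76 and 0.38. Carboplatin gave 0.08 for EGFR (SE 0.306) and 0.30 for IGF1R (SE 0.191), with adjusted p = 1.00 for both. All 3 comparisons called 0% of genes, with 94, 493 and 59 at an unadjusted p under 0.05. The INK128 and combination contrasts contain the polysome arrays by which the pair was chosen and have no test, and the intervals leave room for changes of up to 1.78-fold in EGFR with INK128.

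Across the 20 arrays kept, EGFR and IGF1R correlated with a Pearson r of 0.749 (0.820 over 13 polysome and 0.711 over 7 total RNA arrays). This is a description, since the arrays fall into those with and without INK128 and the pair was chosen by that contrast. Of all tested genes, the 5 closest to EGFR in profile were the complement gene C3 (r = 0.978), FRY (0.977), the forkhead gene FOXK1 (0.975), SUSD2 (0.963) and VWA7 (0.956). Those closest to IGF1R were LTBP4, which encodes a binding protein of latent TGF-beta (0.932), the ciliary genes BBS2 (0.931) and IFT140 (0.930), DIP2C (0.931) and ACOT11 (0.927). Neither list held the other receptor. With INK128 in polysome RNA, FOXK1 stood 1.27 and C3 0.67 above DMSO, beside the 1.24 of EGFR, and LTBP4 stood 0.94 above it, beside the 0.67 of IGF1R.

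Other genes of the pathway were read from 9 lists written with earlier results of these data known, without the pair itself. Only listed genes named on the array and bright enough were tested. These were 2 of 3 for the EGF receptor family, 9 of 24 for PI3K and Akt and 15 of 28 for FOXO. The rest of each list was not measured here. Over all genes, 8.18% were called with INK128 in polysome RNA, 13.1% with the combination and 14.4% for the averaged effect in total RNA, in either direction. Of the relatives of EGFR, ERBB3 and ERBB4 were tested. Limma called 0 of the 2 in each of the 3 comparisons described here, with 1 at an unadjusted p under 0.05 in each. ERBB3, the kinase-impaired partner that recruits PI3K, stood at 0.17 with INK128 in polysome RNA (SE 0.126, adjusted p = 0.443) and at 0.10 in total RNA (averaged effect, SE 0.108, adjusted p = 0.550). ERBB4 had 0.41 (SE 0.131, adjusted p = 0.0679) and 0.25 (SE 0.102, adjusted p = 0.128). Among 4 tested EGF family ligands, 0 rose and 1 fell in each comparison, a count too small to set against the 8.18%, 13.1% and 14.4% over all genes. This was NRG4, a ligand of ERBB4, which fell by 0.90 with INK128 in polysome RNA (SE 0.224, adjusted p = 0.0274), by 0.90 with the combination (adjusted p = 0.0217) and by 0.69 in total RNA (adjusted p = 0.0240).

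Of 13 tested brakes on receptor signalling, 5 rose and 0 fell with INK128 in polysome RNA, 3 rose and 1 fell with the combination, and 4 rose and 1 fell in total RNA, beside 8.18%, 13.1% and 14.4% of all genes called. The median change of the 13 was 0.23 in polysome RNA with INK128, against -0.02 over all tested genes. SPRY4, a Sprouty inhibitor of the MAP kinase cascade downstream of receptors, was higher by 1.21 with INK128 (SE 0.210, adjusted p = 0.00411), by 1.45 with the combination (adjusted p = 0.00164) and by 0.88 in total RNA (adjusted p = 0.00335). SPRY2 had 1.02, 0.83 and 1.28, and DUSP6, a phosphatase that switches off ERK, had 1.02, 0.88 and 1.07, each past the threshold in all 3. DUSP4, another MAP kinase phosphatase, passed in polysome RNA with INK128 alone (0.78, adjusted p = 0.0341), as did the EGFR-degrading membrane protein LRIG1 (0.63, adjusted p = 0.0108), which also rose in total RNA (0.38, adjusted p = 0.0299). SOCS4, which targets EGFR for degradation, fell by 0.85 with the combination (adjusted p = 0.0415) and by 0.70 in total RNA (adjusted p = 0.00498).

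Around IGF1R, the 2 other insulin and IGF receptors tested, IGF2R and INSR, both passed in total RNA, where 14.4% of all genes were called. IGF2R, which is no kinase but carries IGF2 and lysosomal enzymes to the lysosome, rose by 1.20 with INK128 in polysome RNA (SE 0.230, adjusted p = 0.00685), by 1.07 with the combination (adjusted p = 0.0119) and by 0.92 in total RNA (SE 0.129, adjusted p = 0.00145). INSR, the insulin receptor, rose by 0.54 in total RNA (SE 0.143, adjusted p = 0.0277). It kept this call in 4 of 10 refits without 1 array, and with all arrays by their labels it stood at 0.24 (limma adjusted p = 0.817). In polysome RNA INSR stood at 0.42 with INK128 (adjusted p = 0.0965) and 0.30 with the combination (adjusted p = 0.182). Of 5 tested IGF ligands and binding proteins, limma called 0 in each of the 3 comparisons (0, 0 and 2 with an unadjusted p under 0.05 for INK128, the combination and total RNA), and their changes with INK128 in polysome RNA ran from -0.12 for IGFBP3 to 0.33 for IGFBP7.

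Of 10 tested adaptors, 1 rose with INK128 in polysome RNA and 1 with the combination, and in total RNA 3 rose and 1 fell. In polysome RNA this is close to the shares over all genes, 8.18% and 13.1%, and in total RNA it stands beside 14.4%. GRB7, an adaptor that docks on ERBB2 and other receptors, was the one that rose throughout, by 1.28 (SE 0.129, adjusted p = 0.000136), 1.12 (adjusted p = 0.000424) and 1.14 (adjusted p = 0.000800). In total RNA SHC2 rose by 0.62 (adjusted p = 0.00855) and IRS2, the adaptor of the insulin and IGF1 receptors, by 0.53 (adjusted p = 0.0440), and GRB2, which links receptors to RAS, fell by 0.41 (adjusted p = 0.0268). IRS2 stood at 0.96 with INK128 in polysome RNA (SE 0.300) with an adjusted p of 0.0632. IRS1 did not pass, at 0.35 (SE 0.289, adjusted p = 0.483) in polysome and 0.23 (adjusted p = 0.347) in total RNA. The list of PI3K, Akt and mTOR genes held 24, of which 10 were named on the array and 9 tested. Of the 9, only TSC2 passed, an inhibitor of mTORC1 that Akt phosphorylates. It stood at 0.70 in polysome RNA of INK128 cells (adjusted p = 0.0283) and 0.68 in total RNA (adjusted p = 0.00362). This count of 1 in 9 is close to the 8.18% and 14.4% over all genes. With the combination limma called 0 of the 9 (13.1% over all genes), and 2 had an unadjusted p under 0.05.

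Of 15 tested FOXO factors and targets (INSR, IRS2 and ERBB3 are on this list as well), 3 rose with INK128 in polysome RNA, 2 with the combination and 4 in total RNA, and 0 fell. The count with the combination is close to the share over all genes (13.1%), and the others stand beside 8.18% and 14.4%. The list includes the thioredoxin-binding protein gene TXNIP, which rose by 1.64 (SE 0.138, adjusted p = 7.3e-05), 1.35 (adjusted p = 0.000179) and 1.53 (adjusted p = 0.000264), and the ubiquitin ligase gene FBXO32, which rose by 1.17 (adjusted p = 0.00184), 0.92 (adjusted p = 0.00641) and 0.88 (adjusted p = 0.0159). The transcriptional repressor gene BCL6 passed with INK128 in polysome RNA (0.67, adjusted p = 0.0454). FOXO1 and FOXO3 themselves stood at 0.29 and 0.06 there, with adjusted p of 0.265 and 0.777. The median of the list was 0.18 with INK128 in polysome RNA, against -0.02 over all tested genes.

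Among 21 other receptor tyrosine kinases tested, 6 rose and 0 fell with INK128 in polysome RNA, 3 rose and 1 fell with the combination, and 5 rose and 0 fell in total RNA, where the shares over all genes were the 8.18%, 13.1% and 14.4% given above. Their median was 0.35, 0.31 and 0.22, against -0.02, -0.08 and -0.01 over all tested genes. EPHA3, an ephrin receptor, rose by 1.27 with INK128 in polysome RNA (SE 0.220, adjusted p = 0.00411) and by 1.28 in total RNA (SE 0.106, adjusted p = 0.000108), and stood at 0.60 with the combination (adjusted p = 0.0802). AXL, the receptor of the ligand GAS6, rose by 1.04 (adjusted p = 0.00724), 0.77 (adjusted p = 0.0254) and 0.50 (adjusted p = 0.0265). In polysome RNA, EPHA2 rose by 0.63 with INK128 and by 0.69 with the combination (adjusted p = 0.0453 and 0.0251), and the WNT5A receptor ROR1 by 0.59 and 0.64 (adjusted p = 0.0303 and 0.0175), while neither passed in total RNA. TYRO3, a relative of AXL, fell by 0.57 with the combination (adjusted p = 0.0122).

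Of 18 genes of these lists called with INK128 in polysome RNA, 8 were called in all 13 refits without 1 array, namely TXNIP, GRB7, EPHA3, SPRY4, IGF2R, FBXO32, AXL and DUSP6. In total RNA 10 of 20 were called in all 10 refits, among them TXNIP, GRB7, EPHA3, SPRY4, IGF2R and DUSP6. With the combination in polysome RNA 4 of 13 were, namely TXNIP, GRB7, SPRY4 and FBXO32. Each of the 10 other genes called with INK128 in polysome RNA lost its call both without INK128 polysome 2 and without INK128 polysome 3, each of the 10 other genes called in total RNA lost it without DMSO total 1, and each of the 9 other genes called with the combination lost it without combination polysome 2 or DMSO polysome 3. The number of other receptor kinases that rose with INK128 in polysome RNA ranged over these refits from 2 (without INK128 polysome 1, 2 or 3, or DMSO polysome 1 or 3) to 9 (without DMSO polysome 2), and in total RNA from 1 (without DMSO total 1 or 2) to 7 (without INK128 total 2). With all 24 arrays by their labels, 14 of the 18 were called with INK128 in polysome RNA, 10 of the 13 with the combination, and 0 of the 20 in total RNA by limma, where 8 had an unadjusted p under 0.05.

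**Figure D4:**
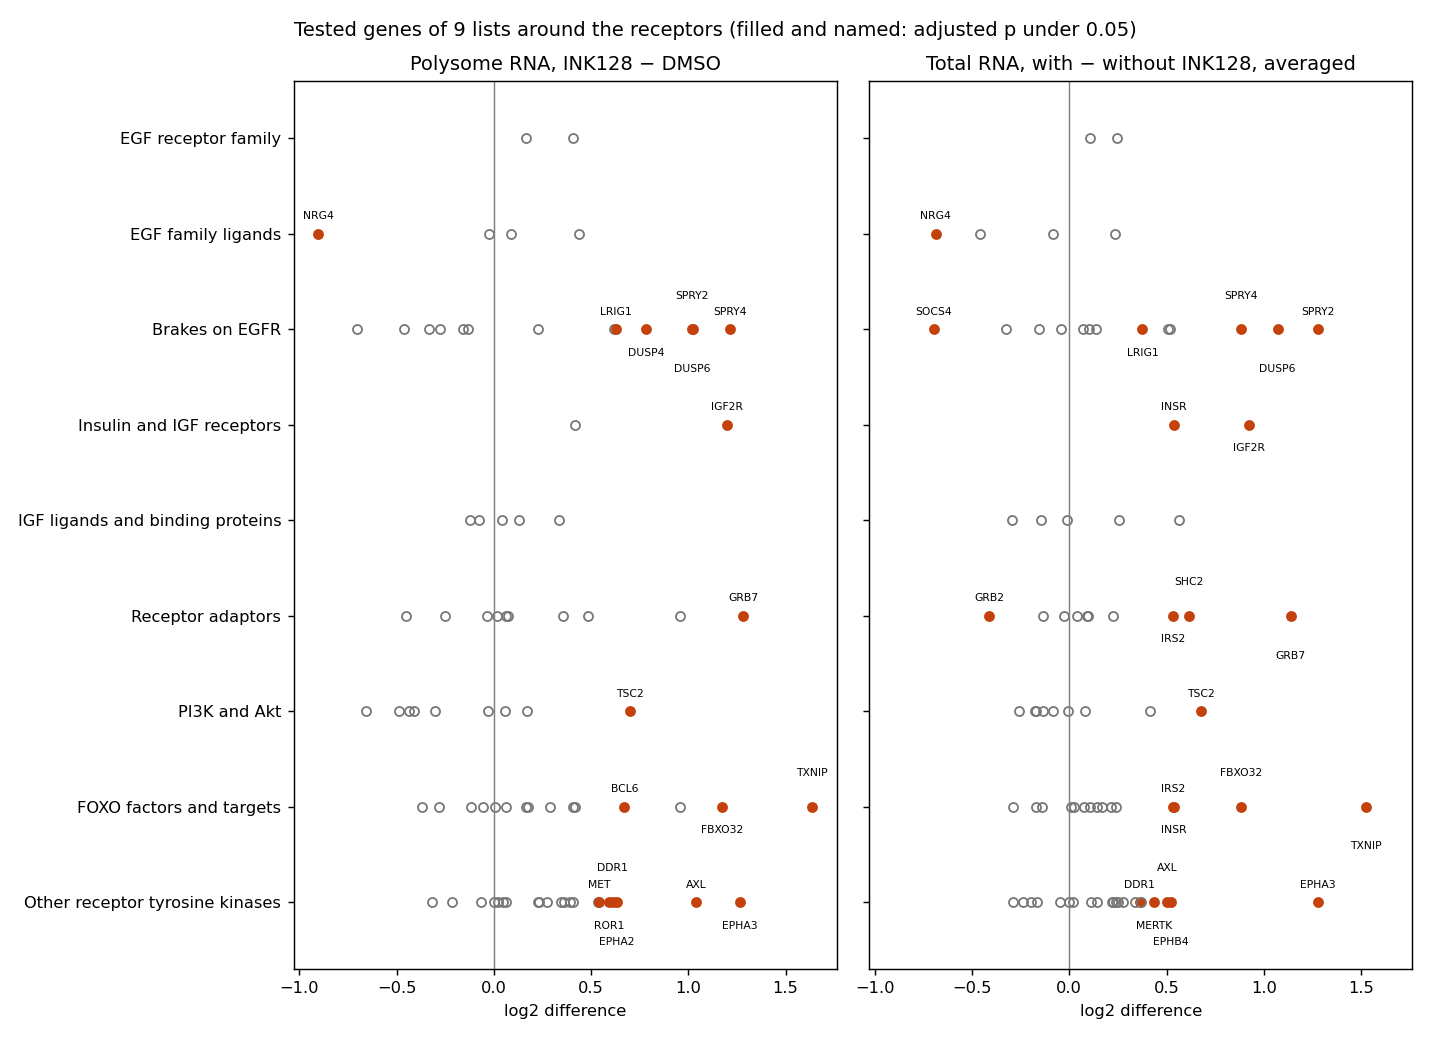
Log2 differences of the tested genes of the 9 lists, 1 point per gene, for INK128 minus DMSO in polysome RNA (left) and for total RNA with minus without INK128, averaged over carboplatin (right). Filled and named points passed an adjusted p of 0.05 over all 7442 genes; the passing points lie mainly to the right of 0, with NRG4 to the left in both panels and SOCS4 and GRB2 to the left in total RNA.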

How the data were processed

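OVCAR-3 polysome and total RNA was hybridized to 24 Affymetrix Human Gene 2.0 ST arrays. The authors made the deposited log2 signals in Affymetrix Expression Console 1.4.1 with RMA background correction and quantile normalization, so values are relative to the other arrays and the amount of RNA per cell is lost. Of 53617 probesets, 16098 had 1 symbol in the platform annotation, 0 had several and 37519 had none. The brightest probeset of each symbol on average was kept (14884 genes), and the 7442 genes whose mean log2 signal reached 6.54 were tested.

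Conditions came from the labels. The study's datasets were used only to find arrays whose values stand under another condition: 16 arrays had a matching column (527 or 676 probesets, all equal within 0.0001 log2 units), and 4 of these were in conflict. The tests were limma fits (limma 3.58.1, R 4.3.3, and the data.table package, version 1.17.8) with 1 mean per group and an estimate of spread shared over all groups of the RNA fraction, or of both fractions where they were compared, with Benjamini-Hochberg adjustment over all tested genes. The script was tested on simulated data. Members and lists were chosen with earlier results of these data known. Named genes were the pair, direct partners, up to 4 called genes per list and comparison with the largest change, and the 5 genes most correlated with either receptor. ERBB4, LRIG1, IGFBP3, IGFBP7 and the marker genes were named after their values were seen. Alternatives were the placement of the 4 arrays, the arrays in the fit, the filter, all probesets, other normalizations, array weights, the replicate number as a block, leaving out coded carboplatin arrays, matched pairs, and each array left out. Promoter sequences are from the RefSeq table of GRCh38.p14.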

Additional observations from a re-analysis of the deposited data

How the results depend on the processing

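With the 4 arrays in conflict placed by their labels, EGFR gave 1.09 for INK128 against DMSO in total RNA (adjusted p = 0.322), 0.48 for the combination against DMSO (0.640), 0.052 for the combination against carboplatin (0.970) and 0.57 for the averaged INK128 effect (0.704). The EGFR difference between combination and INK128 in total RNA was -0.62, and translation efficiency with the combination was 0.76 for EGFR and 0.38 for IGF1R. By the same placement IGF1R gave 0.11 for the combination against carboplatin (0.928), 0.25 for the averaged effect (0.751) and 0.52 for polysome minus total RNA with carboplatin (0.0692). The EGFR difference between INK128 and DMSO in total RNA also lost its call at 1.09 with only the arrays compared (0.159), every named probeset (0.0572), array weights (0.0539) or no coded arrays (0.0764), and at 1.08 with centred arrays (0.0825). IGF1R in total RNA, combination against carboplatin, lost its call at 0.55 with only the arrays compared (0.0597) or no filter (0.0666), at 0.53 with repeated quantile normalization (0.0522) and at 0.59 with centred arrays (0.0529).

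With the replicate block, which uses the replicate number of the labels, EGFR in total RNA lost its call at 1.09 for INK128 against DMSO (adjusted p = 0.0637), 0.88 for the combination against DMSO (0.105) and 0.62 for the combination against carboplatin (0.142), and IGF1R at 0.49 for the combination against carboplatin (0.234) and 0.44 for the averaged effect (0.0612). The block changed no other call of the pair, and moved the number of genes called in total RNA to 516 for the averaged effect (1075 without it), 12 for the combination against carboplatin (623), 8 for the combination against DMSO (31) and 0 for INK128 against DMSO (12), and for polysome minus total RNA to 95 in DMSO cells (326) and 736 in INK128 cells (1207). Same-numbered arrays deviated together in part only (r -0.03 to 0.44 over 15 polysome pairs, -0.04 to 0.31 over 4 total RNA pairs), and the labels do not say what a number stands for. Polysome arrays with different numbers had r from -0.45 to 0.53 over 30 pairs, with a median of -0.11 against 0.17 for the same number. In total RNA, different numbers gave -0.48 to 0.48 over 8 pairs. All 3 pairs of INK128 and DMSO polysome arrays had r over 0.1 (0.163 to 0.363), so there the numbers may pair the arrays, and the block gave 700 genes called in place of 609. For the other groups not every pair did, or there were fewer than 3 pairs, as in total RNA.

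Array weights, whose estimation stopped before convergence in 12 of 18 fits, gave IGF1R 0.52 for the combination against DMSO and 0.45 against carboplatin in polysome RNA, and 0.39 for polysome minus total RNA in DMSO cells (adjusted p = 7.95e-05, past the threshold). Without the coded arrays, EGFR gave 0.49 for the combination against carboplatin in polysome RNA and 0.66 for polysome minus total RNA with carboplatin (0.0427, past the threshold). EGFR between combination and INK128 in polysome RNA turned to -0.047 with centred arrays. Causes were not tested.

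With 1 array left out at a time, EGFR ran from -0.082 to 0.064 for combination against INK128 in polysome RNA, and its translation efficiency from -0.049 to 0.31 with INK128 and from -0.11 to 0.26 with carboplatin. In total RNA EGFR ran from 1.01 to 1.17 for INK128 against DMSO, from 0.83 to 0.99 for the combination against DMSO and from 0.65 to 0.69 for the combination against carboplatin. IGF1R ran from 0.46 to 0.61 for the combination against carboplatin and from 0.42 to 0.51 for the averaged effect. Genes called ranged over these refits from 168 to 955 for INK128 against DMSO in polysome RNA (609 with all arrays kept), 219 to 1392 for the combination (976), 0 to 32 for INK128 in total RNA (12), 0 to 147 and 0 to 1104 for the combination against DMSO (31) and carboplatin (623), 302 to 1637 for the averaged effect (1075), and 1 to 1545 and 1012 to 2340 for polysome minus total RNA in DMSO (326) and carboplatin cells (1951). Over the other settings these counts ranged from 301 to 4984, 44 to 4778, 0 to 209, 0 to 1012, 0 to 2121, 0 to 1311, 0 to 4714 and 0 to 2887 in the same order. For carboplatin against DMSO in polysome RNA, where 0 genes were called, other settings reached 658.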
